A study of Mus musculus with 4 samples.

Results

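The genes examined here encode enzymes that write and erase chemical marks on histones, together with subunits of the complexes that move nucleosomes. The set holds 45 genes, chosen by symbol, and all 45 were found among the 24445 genes of the deposited table. They were grouped into 18 methyltransferase genes, 7 demethylase genes, 11 deacetylase genes, 4 acetyltransferase genes and 5 remodeller genes. RNA was sequenced from primary myoblasts of C57BL/6 mice in 2 groups with 2 libraries each, wild type (WT) and Tet2 KO. The Tet2 KO animals lacked exon 3 of Tet2 in all tissues, and Tet2 is an enzyme that oxidises 5-methylcytosine in DNA. Satellite cells had been sorted from hindlimb muscle by surface markers that leave out leukocyte and endothelial cells, and were cultured on collagen for at least 3 days until they were myoblasts. By the study's methods the animals were young adult males unless stated otherwise, and the sources used here do not say whether the libraries of a group came from different animals.

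Expression was read as FPKM, fragments scaled to transcript length and to all mapped fragments, a unit that allows levels of different genes to be set side by side. The authors deposited 1 pooled FPKM value per gene and group and no value per library, so no value below carries an SD or a number of replicates, and no difference could be tested against the spread between libraries. Depth is unknown. A difference between the groups is given as log2((Tet2 KO FPKM + 1) / (WT FPKM + 1)), which is negative when the level was lower in Tet2 KO and which understates differences of genes with low levels. Folds given as such are plain ratios of FPKM, and a gene is called expressed where its FPKM averaged 1 or more over both groups. Where a pair of FPKM values is given without group names, Tet2 KO stands before WT.

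Histones carry methyl and acetyl groups on their tails, and the enzymes fall into writers and erasers of each. Acetylation generally goes with open, transcribed chromatin, while the effect of methylation depends on the residue. In muscle precursors MyoD works with acetyltransferases and with SWI/SNF remodelling complexes to open muscle genes, whereas the polycomb complex PRC2 and several deacetylases hold such genes silent until differentiation. The jumonji histone demethylases use iron and alpha-ketoglutarate as cofactors, as the Tet enzymes do on DNA.

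The enzyme genes were at close to the same level in Tet2 KO and WT myoblasts. Among the 43 expressed members 1 gene, Hdac11, was at least 1.5-fold lower in Tet2 KO on the log2(FPKM + 1) scale, and 0 were at least 1.5-fold higher. Among all 11692 expressed genes, 2.89% were lower and 3.72% were higher by this measure, so the single lower gene among the 43, a share of 2.33%, lay near the share of all genes. A log2 difference smaller than 0.32 in size was seen for 42 of the 43 genes (97.7%), against 85.9% of all genes, of which 7.03% were lower and 7.04% higher by more. At 2-fold, where 1.21% of all genes were lower and 2.08% higher, the count of members was 0 in both directions. Of the 43 genes 24 were lower and 19 higher in Tet2 KO by any amount, beside 5989 lower and 5703 higher of all 11692 genes. The median log2 difference of the 43 genes was -0.020, beside -0.0044 for all genes. The median size of the difference, leaving out its sign, was 0.076 for the enzyme genes and 0.10 for all genes.

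Myod1, which defines myoblasts and was picked for this check after its values were seen, had 313 FPKM in Tet2 KO against 336 in WT. All 6 listed myoblast markers, Myod1 among them, were lower in Tet2 KO, at a median log2 difference of -0.10, with 0 past 1.5-fold. The largest fall among them was that of Des, at -0.27, with 372 FPKM in Tet2 KO against 449 in WT. Tet2 itself had 5.79 FPKM in Tet2 KO against 6.64 in WT, a value over all exons that does not show the deleted exon separately and so does not check the labels. Markers of other cells differed between the groups. All 18 leukocyte markers were at least 1.5-fold higher in Tet2 KO, with a summed level of 551 FPKM against 141 FPKM in WT and none at 0. Of the 7 expressed fibroblast markers 6 were higher in Tet2 KO, 3 of them by at least 1.5-fold, at a median log2 difference of 0.50. All 8 listed summed to 208 FPKM in Tet2 KO against 177 in WT, of which Col3a1 alone made 171 and 152 FPKM. The 6 endothelial markers summed to 3.82 and 4.01 FPKM, and the 10 lymphocyte markers to 1.56 and 1.24 FPKM, with Cd3e listed at 0 in Tet2 KO and Cd3d, Cd3g and Ms4a1 listed at 0 in WT. In bulk RNA fewer cells of a type and less RNA per cell cannot be told apart, and the part of these other cells in the values of the enzyme genes was not tested.

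**Figure D1:**
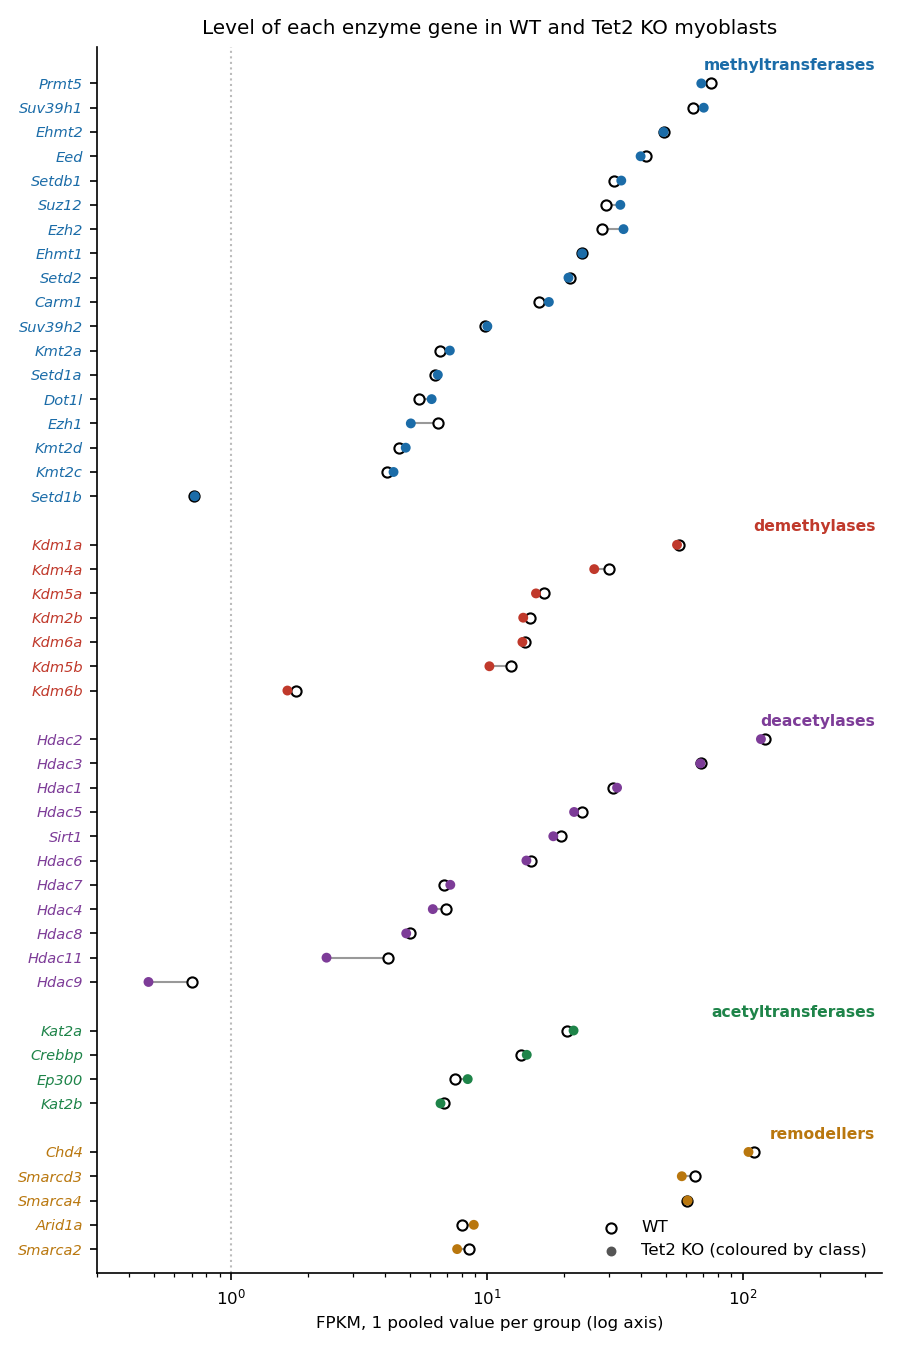
FPKM (log axis) of the 45 genes in WT (open circles) and Tet2 KO (filled circles, coloured by class), 1 pooled value per gene and group, with the dotted line at 1 FPKM. The circles of a gene nearly coincide along the whole range from Setd1b and Hdac9 under 1 FPKM to Hdac2 above 100 FPKM, and the widest gaps are those of Hdac11 and Hdac9.

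Levels spanned more than 2 orders of magnitude among the enzymes. A mean over both groups of at least 50 FPKM was reached by 8 genes, 19 lay from 10 to under 50 FPKM, 16 from 1 to under 10 FPKM, and 2 genes, Setd1b and Hdac9, lay below 1 FPKM. The median of the 43 genes above that level was 16.1 FPKM, against 13.7 FPKM for all genes, and 26 of the 43 lay above the median of all genes. The most abundant were the class I deacetylase gene Hdac2 and the remodelling ATPase gene Chd4, followed by Prmt5, Hdac3 and Suv39h1. The 43 genes had a level of at least 1 FPKM in each group, so none entered the count through its higher group alone.

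The promoters of Hdac11, Ezh1 and Ezh2, the 3 expressed members farthest from equality at the pseudocount of 1, are shown because MyoD binds E boxes (CANNTG, which reads the same on both strands, with CAGCTG as the form MyoD prefers) and because Tet2 acts on CpG sites. Without a pseudocount Kdm5b, at -0.28, lay slightly farther than Ezh2, at 0.28. The sequences are from RefSeq in build GRCm38.p6, a later build than the mm9 of the expression table, and give the 250 bases before the start of the gene on its own strand, with E boxes in capitals. The Hdac11 promoter is chr6:91156565-91156814 on the plus strand, that of Ezh1 is chr11:101226464-101226713 on the minus strand, and that of Ezh2 is chr6:47595031-47595280 on the minus strand.
Hdac11: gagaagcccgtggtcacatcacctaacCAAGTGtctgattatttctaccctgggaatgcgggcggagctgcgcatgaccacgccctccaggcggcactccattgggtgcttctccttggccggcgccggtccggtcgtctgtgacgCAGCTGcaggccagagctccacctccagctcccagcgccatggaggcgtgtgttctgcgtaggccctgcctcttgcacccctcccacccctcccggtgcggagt
Ezh1: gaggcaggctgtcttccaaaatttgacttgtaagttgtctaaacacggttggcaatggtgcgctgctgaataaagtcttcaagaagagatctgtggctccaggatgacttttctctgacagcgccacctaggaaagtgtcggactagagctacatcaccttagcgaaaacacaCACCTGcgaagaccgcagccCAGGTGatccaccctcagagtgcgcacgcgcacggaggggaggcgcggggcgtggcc
Ezh2: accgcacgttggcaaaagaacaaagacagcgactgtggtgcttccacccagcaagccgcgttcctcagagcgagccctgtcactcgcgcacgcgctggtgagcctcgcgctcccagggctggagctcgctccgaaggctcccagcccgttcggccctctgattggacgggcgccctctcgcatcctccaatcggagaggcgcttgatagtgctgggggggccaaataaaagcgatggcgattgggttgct
These 250 bases held 2 E boxes in Hdac11, with the CAGCTG beginning 104 bases before the start, 2 in Ezh1, beginning 77 and 57 bases before the start, and none in Ezh2. They held 17 CpG sites in Hdac11, 14 in Ezh1 and 23 in Ezh2.

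Over the whole set, RefSeq promoter windows (250 bases before and 50 after the start) were at hand for 39 of the 45 genes, in 51 windows. Some genes have several windows, and these can overlap, as for Chd4 and Kdm2b. The shares below are of windows and not of genes, so the same bases can count more than once. A CANNTG stood in 33 of the 51 windows (64.7%), against 63.2% of the 11633 windows of expressed genes. A CAGCTG stood in 10 of them (19.6%), against 15.2%. The 51 windows include those of Hdac9, which lay below 1 FPKM and so has no place among the expressed genes. Each Hdac9 window held a CAGCTG, so the 2 sets are not alike and the higher share is not read further. The enzyme promoters were rich in CpG, with a median of 29 sites per window against 21 for those 11633 windows, and 43 of the 51 windows (84.3%) held at least 15 sites against 68.7%. For comparison, 22 windows of muscle differentiation genes had a median of 6 CpG sites, and 19 of them held a CANNTG. These matches describe letters in a window and not binding. No methylation value was used here.

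**Figure D2:**
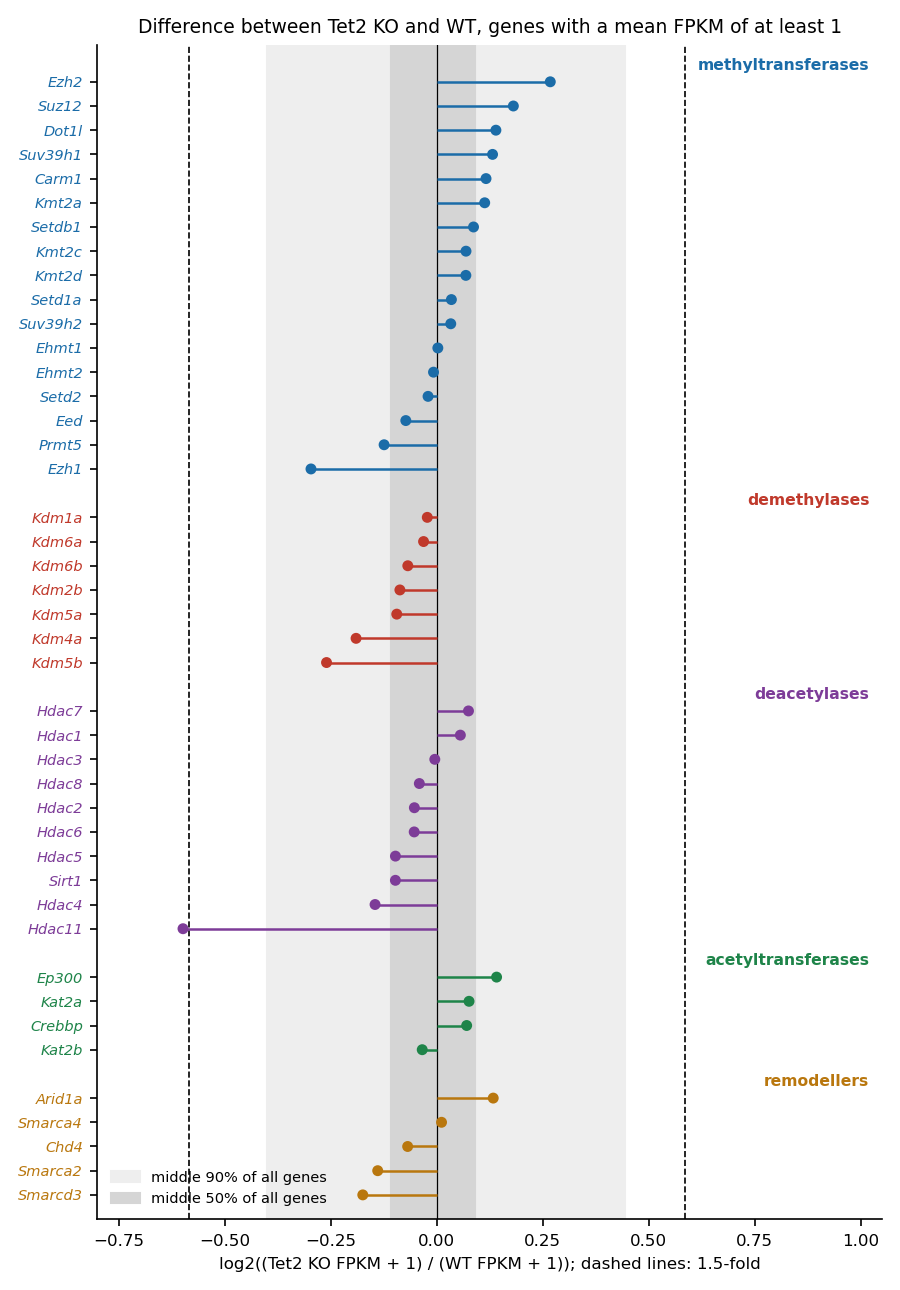
Difference between the groups, log2((Tet2 KO FPKM + 1) / (WT FPKM + 1)), for the 43 expressed enzyme genes, by class, with dashed lines at 1.5-fold and shading for the middle 50% and middle 90% of all 11692 genes. Hdac11 alone lies past a dashed line and outside the wider shading, at -0.60. All 7 demethylase genes lie to the left of 0, as do 5989 of all 11692 genes.

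Methyltransferase genes came first. Tet2 KO had the higher level for 12 of the 17 expressed genes and the lower level for 5, at a median difference of 0.069 and with none past 1.5-fold. Of all 11692 expressed genes, 5703 were higher and 5989 lower. Of 36 other expressed methyltransferase genes and subunits, from the wider list described below, 17 were higher and 19 lower. The cell cycle genes listed for comparison were slightly higher in Tet2 KO, 24 of 25 of them, with a median of 0.10. Some of the enzymes, Ezh2 among them, are known to be expressed most in dividing cells, and the relation between these values was not tested.

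PRC2, the writer of methylation at lysine 27 of histone H3, held the extremes of the methyltransferase class, and they pointed opposite ways. Ezh2, the catalytic subunit typical of proliferating cells, had 34.2 FPKM in Tet2 KO against 28.2 in WT, a difference of 0.27. Ezh1, its counterpart typical of resting and differentiated cells, had 5.04 FPKM in Tet2 KO against 6.41 in WT, a difference of -0.30. Both differences were larger than those of most genes, since 84.2% of genes differed by less than Ezh1 and 81.9% by less than Ezh2. Neither reached 1.5-fold. The ratio of Ezh2 to Ezh1 was 6.78 in Tet2 KO and 4.40 in WT. The non-catalytic core subunits stayed closer to equality, with 33.2 and 29.2 FPKM for Suz12, the scaffold of the complex, and 39.8 and 42.0 FPKM for Eed, which binds the finished mark. In mm9 Ezh1 lies on chromosome 11 from 101052429 to 101087777 and Ezh2 on chromosome 6 from 47480273 to 47545029. Both are on the minus strand, with 21 and 20 exons in their longest annotated coding transcripts, and no stretch of either transcript had a near-identical copy outside its gene.

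Writers of methylation at lysine 9 of histone H3, a mark of silent chromatin, were nearly level. Suv39h1, which acts at heterochromatin around centromeres, was the most abundant, with 70.3 FPKM in Tet2 KO against 64.1 in WT. Its paralogue Suv39h2 had 10.03 and 9.78 FPKM. Ehmt2, known as G9a, had 49.0 FPKM in Tet2 KO against 49.3 in WT, and its partner Ehmt1 had 23.6 and 23.5 FPKM. These last genes were among the closest to equality in the set, with log2 differences of -0.0076 and 0.0026. Setdb1, which silences retroelements, had 33.5 FPKM in Tet2 KO against 31.5 in WT. For Suv39h1, 12.0% of the exon bases are shared with an antisense transcript, Gm14820, and the counting is not stated to use strand.

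The writers at lysine 4 of histone H3, a mark of active promoters and enhancers, were low but uniform. Kmt2a had 7.15 FPKM in Tet2 KO against 6.54 in WT, Kmt2c had 4.31 and 4.06 FPKM, and Kmt2d had 4.81 and 4.54 FPKM. All 3 were slightly higher in Tet2 KO, by 0.11, 0.069 and 0.069 on the log2 scale. Setd1a had 6.42 FPKM in Tet2 KO against 6.25 in WT, with 52.6% of its exon bases shared in the annotation with Hsd3b7, so its own value is uncertain. Setd1b was at 0.720 and 0.713 FPKM, too low for the count.

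The remaining lysine writers and the arginine methyltransferases spread to either side of 0. Setd2, which methylates lysine 36 of histone H3 over transcribed gene bodies, had 20.8 FPKM in Tet2 KO against 21.1 in WT. Dot1l, which methylates lysine 79 in the histone core, had 6.07 and 5.42 FPKM, a difference of 0.14. Prmt5, the main enzyme of symmetric arginine methylation, had 68.8 FPKM in Tet2 KO against 75.1 in WT. It was the most abundant of the methyltransferase genes by the mean of both groups, while in Tet2 KO Suv39h1 was higher, at 70.3 FPKM. Carm1, a coactivator that acts with p300, had 17.4 and 16.02 FPKM, while the antisense neighbour Yipf2 shares 23.1% of its exon bases and had 13.2 and 13.1 FPKM.

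All 7 demethylase genes were lower in Tet2 KO, each by a small amount, with a median log2 difference of -0.087 and none as large as 0.32. The list is short and the differences are of the size that many genes showed, so no call is made from their shared sign. Of 14 other expressed demethylase genes, from the wider list described below, 8 were lower and 6 higher. Among the 7 members Kdm5b, an eraser of methylation at lysine 4, differed most, at -0.26. It had 10.2 FPKM in Tet2 KO against 12.4 in WT. Its paralogue Kdm5a had 15.5 and 16.7 FPKM. Kdm1a (LSD1), which erases the same residue by another chemistry and was the most abundant demethylase gene, had 55.3 FPKM in Tet2 KO against 56.2 in WT.

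The remaining demethylase members differed by less than Kdm5b. Kdm4a, which acts on lysines 9 and 36, had 26.2 FPKM in Tet2 KO against 30.1 in WT, a difference of -0.19. Kdm2b, which recruits polycomb complexes to unmethylated CpG islands, had 13.9 and 14.8 FPKM, and a copy elsewhere in the genome covered 31.5% of its transcript. The erasers of the PRC2 mark differed from each other in level. Kdm6a (UTX) had 13.8 FPKM in Tet2 KO against 14.1 in WT, and Kdm6b (JMJD3), which removes the same mark, had 1.66 and 1.79 FPKM.

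Tet2 KO had the lower level for 8 of the 10 expressed deacetylase genes and the higher level for 2, at a median difference of -0.053. Of 23 other expressed deacetylase genes and subunits, from the wider list, 13 were lower and 10 higher. Hdac11, the sole class IV deacetylase, stood apart. It had 2.36 FPKM in Tet2 KO against 4.08 in WT, which is 1.73-fold lower in Tet2 KO and a log2 difference of -0.60 with the pseudocount of 1. Of the 11692 genes, 325 were lower by at least as much. The next member in line, Ezh1 at -0.30, lay well inside the threshold of 1.5-fold. Hdac11 lies on chromosome 6 from 91106809 to 91124677 in mm9, on the plus strand, with 10 exons in its longest annotated coding transcript. An antisense transcript, Gm14573, shares 3.48% of its exon bases, and no near-identical copy of it was found. Its level was low, and the number of fragments behind it is unknown. The muscle differentiation genes listed for comparison were lower as well, 22 of 22 of them, with 21 past 1.5-fold and a median of -1.20, and whether Hdac11 belongs with them was not tested.

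Class I deacetylases include Hdac1 and Hdac2 of the Sin3, NuRD and CoREST complexes, Hdac3 of the NCoR complex, and Hdac8, which is not a subunit of these. They held the most abundant deacetylase genes and lay close to equality. Hdac2 had 118 FPKM in Tet2 KO against 122 in WT, the highest level of the 45 genes. Hdac3 had 68.2 and 68.4 FPKM, a difference of -0.0045. Hdac8 had 4.83 and 5.0 FPKM. Hdac1 had 32.2 FPKM in Tet2 KO against 31.0 in WT, but a copy elsewhere in the genome covered 97.7% of its transcript, so its value is uncertain. Hdac1 was the single gene of the 45 with such a copy over at least 50% of its transcript.

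Class IIa deacetylases bind Mef2 factors and restrain muscle genes until signals export them from the nucleus. Hdac5 was the most abundant of them, with 21.9 FPKM in Tet2 KO against 23.5 in WT. Hdac4 had 6.14 and 6.89 FPKM, a difference of -0.15. Hdac7 had 7.19 and 6.77 FPKM, on the other side of equality. Hdac9 was below the level used for counting, with 0.475 FPKM in Tet2 KO against 0.703 in WT. Hdac6, a largely cytoplasmic tubulin deacetylase, had 14.3 and 14.8 FPKM. Sirt1, a deacetylase that depends on NAD, had 18.2 FPKM in Tet2 KO against 19.5 in WT.

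Acetyltransferase genes leaned the other way by as little, 3 of 4 being higher in Tet2 KO at a median of 0.073. Ep300, which encodes the coactivator p300, had 8.40 FPKM in Tet2 KO against 7.53 in WT, a difference of 0.14. Its paralogue Crebbp had 14.3 and 13.6 FPKM. Kat2a (GCN5) had 21.8 FPKM in Tet2 KO against 20.6 in WT. Kat2b (PCAF), which acetylates MyoD, was the 1 gene lower, with 6.58 and 6.76 FPKM, and a copy elsewhere covered 23.2% of its transcript.

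The remodeller genes were split, with 2 higher and 3 lower and a median log2 difference of -0.069. Smarcd3, which encodes the SWI/SNF subunit BAF60c that pairs with MyoD before muscle genes are activated, had 57.7 FPKM in Tet2 KO against 65.3 in WT, a difference of -0.17. This was the largest difference of the class, yet the antisense neighbour Chpf2, with 10.4 and 10.01 FPKM, shares 37.0% of the Smarcd3 exon bases. The ATPase of the complex is encoded by Smarca4 (BRG1) or Smarca2 (BRM). Smarca4 had 60.8 FPKM in Tet2 KO against 60.4 in WT, and Smarca2 had 7.64 and 8.52 FPKM. Arid1a, the largest DNA-binding subunit of one form of the complex, had 8.88 and 8.01 FPKM. Chd4, the ATPase of the NuRD complex, had 105 FPKM in Tet2 KO against 110 in WT.

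**Figure D3:**
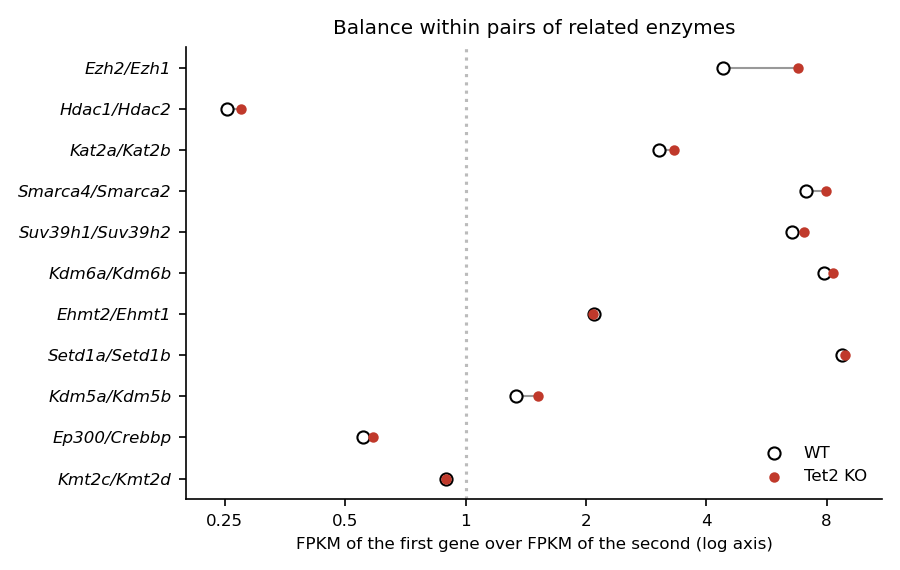
FPKM of the first gene over FPKM of the second within 11 pairs of related enzymes (log axis), in WT (open circles) and Tet2 KO (red circles). The ratio of Ezh2 to Ezh1 shows the widest gap between the groups, 4.40 in WT and 6.78 in Tet2 KO, Setd1a/Setd1b rests on a gene below 1 FPKM, and Hdac1/Hdac2 on the uncertain value of Hdac1.

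Pairs of related enzyme genes were compared as ratios of FPKM within each group. In 9 of the 10 pairs with both genes expressed, the log2 of the ratio differed by less than 0.32 between the groups. The remaining pair was Ezh2/Ezh1, with a ratio 1.54-fold higher in Tet2 KO, made up of differences of opposite sign in the 2 genes. Of all expressed genes taken singly, 7.03% were lower and 7.04% higher by at least 0.32. No such share was computed for pairs of other genes, so the 1 pair of 10 is not called unusual. Smarca4 stood above Smarca2 by 7.96-fold in Tet2 KO and 7.09-fold in WT, and Suv39h1 above Suv39h2 by 7.01-fold and 6.56-fold. The 9 pairs include Hdac1/Hdac2, whose ratio rests on the uncertain value of Hdac1 and is not read further. Kdm5a over Kdm5b was 1.52 in Tet2 KO and 1.34 in WT, while Kmt2c over Kmt2d was 0.896 and 0.895.

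Of a wider list of 135 other histone enzyme and complex genes, 128 were expressed. Among these, 1 was at least 1.5-fold lower (0.781%) and 0 were higher, with a median log2 difference of 0.016. The lower gene was Smyd1, a methyltransferase of heart and skeletal muscle that also serves myosin folding. It had 23.5 FPKM in Tet2 KO against 42.2 in WT, 1.80-fold lower in Tet2 KO and a log2 difference of -0.82. In mm9 it lies on chromosome 6 from 71163934 to 71212275.

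Prmt2, an arginine methyltransferase, had the next lowest difference of the companions, -0.46, with 10.03 FPKM in Tet2 KO against 14.2 in WT, and 469 of all expressed genes were lower by at least as much. Smyd4 at 0.20 was the highest of the other methyltransferase genes and subunits. The deacetylase genes and subunits ran from -0.34 for Rcor2, a subunit of CoREST-type complexes, to 0.28 for Sirt7, and the other demethylase genes from -0.28 for Kdm4c to 0.16 for Riox1. The acetyltransferase genes and subunits ran from -0.28 for Ing4 to 0.23 for Ing5, and the remodeller genes from -0.14 for Dpf1 to 0.23 for Srcap. Class by class the companion medians were -0.0046 for methyltransferases, -0.043 for demethylases, -0.036 for deacetylases, 0.024 for acetyltransferases and 0.034 for remodellers.

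**Figure D4:**
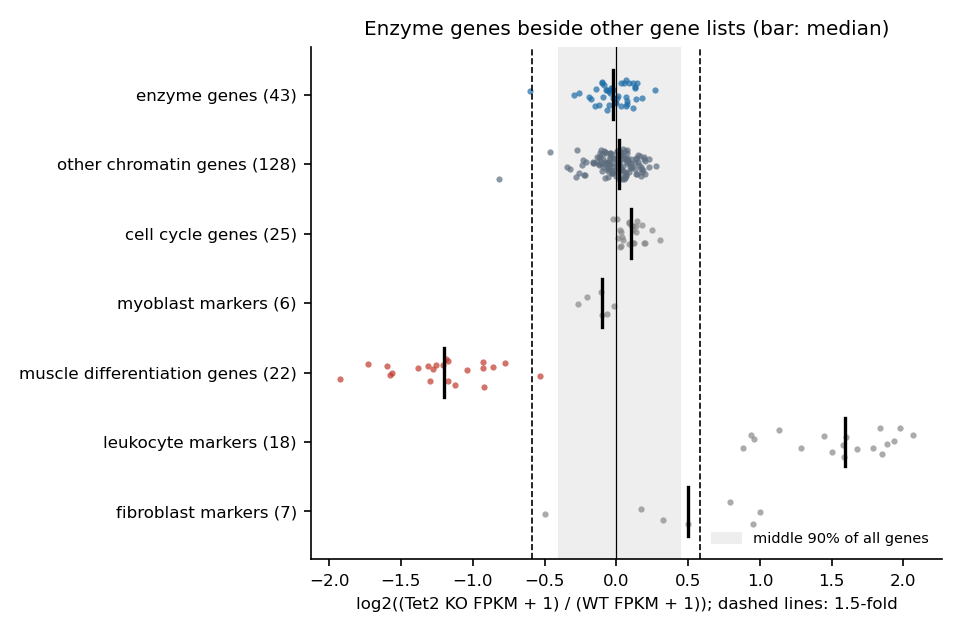
Difference between the groups, log2((Tet2 KO FPKM + 1) / (WT FPKM + 1)), of single genes (points) in 7 lists, with the list median as a bar, dashed lines at 1.5-fold and shading for the middle 90% of all genes. The 43 enzyme genes and 128 other chromatin genes gather at 0, while the 22 muscle differentiation genes lie below 0, with 21 past 1.5-fold, and the 18 leukocyte markers lie above 1.5-fold.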

How the data were processed

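Paired-end reads of 4 TruSeq libraries had been trimmed, aligned to mm9 with TopHat 2.0.13 and quantified with Cuffdiff 2.2.1 by the authors, per the study's methods; the gene annotation is not given in the sources used here. The authors deposited 1 FPKM value per gene and group; how the 2 libraries of a group were combined is not stated. The table also holds the authors' own fold changes, statistics and significance values, which were not used. With 1 value per group no test was possible, so a gene was counted when it differed by at least 1.5-fold at a pseudocount of 1, among expressed genes (FPKM averaging 1 or more). The design named a wider list of chromatin genes and marker lists; genes and lists were chosen with earlier results of these data known. All 45 genes could be named, and of other lists the genes past 1.5-fold and the extremes. Table starts count from 0 and had 1 added. Strand and exons came from GENCODE vM1 (mm9), where 45 of 45 genes were found, 3 of them under older symbols. Copies were stretches of at least 100 bases at 97% identity outside the gene (BLAST+ 2.17.0). Counting and figures used pandas 2.3.3, numpy 2.4.6 and matplotlib 3.10.9 in Python 3.11.15. Ratios and counts, but not the figures, were tested on simulated data. Depth per library is unknown, as FPKM gives no counts.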

Additional observations from a re-analysis of the deposited data

How the results depend on the processing

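No paired analysis was possible because each group is given as 1 pooled value with no libraries apart; leaving out a library was impossible for the same reason. Of 8 alternatives, 6 changed the log2 differences or the genes kept. These were a pseudocount of 0.1, no pseudocount, no filter, an average of 5 FPKM or more, TPM and median centring. The filters changed only which genes were kept, and an average of 5 FPKM or more kept 38 of the 43 enzyme genes. A pseudocount or a filter cannot change the sign of a gene's difference, so only TPM and median centring could have done so. Under these 2 none of the 43 differences changed sign. Both moved the values very little: the median of all genes was -0.0044 in the main setting and -0.0012 with TPM, and centring took it to 0. Such shifts are small beside all 6 medians of the enzyme genes and their classes, so unchanged signs say little about direction. None of the 6 medians changed sign under the 6 settings, and the median of the enzyme genes ran from -0.021 to -0.014. Hdac11 ran from -0.79 without a pseudocount to -0.59 with median centring. It was the single enzyme gene counted throughout, except that none was counted at an average of 5 FPKM or more, which leaves Hdac11 out, or at 2-fold (0 in both). Smyd1 was the single companion counted lower, except at a log2 threshold of 0.32, where Prmt2, Rcor2 and Sap30 made 4, and at 2-fold, where 0 were counted. Of all genes, 435 were higher and 338 lower; an average of 5 FPKM or more gave 182 and 207, the log2 threshold of 0.32 gave 823 and 822, and 2-fold gave 243 and 142. With no value per library, differences as small as most of these cannot be told from the spread between libraries, and unknown depth limits Hdac11, Kdm6b, Hdac9 and Setd1b most.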
